A study of Mus musculus with 6 samples.

Results

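The values described here are the transcript levels of 10 mouse genes of MHC class I antigen presentation and the immunoproteasome: H2-K1, H2-D1, B2m, Tap1, Tap2, Tapbp, Psmb8, Psmb9, Psmb10 and Nlrc5. They were taken by gene symbol from a table of 54532 genes, and every one of the 10 symbols had a single entry that passed the filter on low values. The study asked how ID8 ovarian cancer cells that have met cisplatin alter the T cells around them. Primary T cells from the spleens of young C57BL/6 mice were purified with a pan-T kit, kept in IL-2, activated with beads carrying antibodies to CD3 and CD28, and then grown together with ID8, a mouse ovarian cancer cell line. In 3 libraries the ID8 cells had been pretreated with 40 µM cisplatin (the cisplatin libraries, CIS in the labels), and in 3 they had received PBS (the control libraries, WT in the labels). The labels list cisplatin as a treatment of the T cells, and the design text of the series places it on the ID8 cells before co-culture. All 6 libraries thus share the activation and the contact with ID8 cells, and T cells without ID8 cells were not analysed here. The paper describes its replicates as biological and its samples as independent, but no source used here says whether they came from separate mice or cultures, so p-values measure the spread between these libraries, which may be technical.

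MHC class I molecules show peptides from inside the cell to CD8+ T cells. Each consists of a heavy chain, such as H2-K or H2-D, paired with β2-microglobulin. Proteasomes cut cytosolic proteins into peptides, TAP carries these into the endoplasmic reticulum (ER), and tapasin holds empty class I molecules beside TAP until a peptide fits. Interferon gamma induces alternative catalytic subunits that form the immunoproteasome, and haematopoietic cells express these at rest. NLRC5 is a coactivator that is recruited to the promoters of class I genes and of several genes of the same pathway.

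The table holds FPKM, that is fragment counts divided by gene length and by the size of the library. Levels of different genes can be set side by side only as far as the deposited lengths hold. For H2-D1, B2m, Tap1, Tap2, Psmb10 and Nlrc5 that length equals all annotated exon bases (GENCODE M21). This can exceed the length of the transcripts present. The values could be turned back into whole reads, of which 30606569 to 32169496 lay on genes in each library. The 10 genes had 3569 to 98474 reads each in every library. The labelled cell type was checked against marker lists. All 18 T-cell markers were present and higher in the cisplatin libraries, with a summed level of 2491 to 2552 FPKM against 1562 to 1654 FPKM, and the mean of their log2 levels differed by 0.60. Of 16 markers of ID8 and other epithelial or mesothelial cells, 14 were tested and 13 were lower, with a summed level of 228 to 235 FPKM against 1616 to 1704 FPKM. B-cell markers (9 of 10 higher) summed to 3618 to 3695 FPKM against 1683 to 1767 FPKM. Most of this was Ighm, at 3188 to 3274 FPKM against 1393 to 1468 FPKM, and the mean of the log2 levels differed by 0.60. Myeloid markers (8 of 9 tested higher) summed to 134 to 152 FPKM against 65.8 to 70.3 FPKM. Lyz2 alone had 79.2 to 97.2 FPKM against 29.0 to 32.6 FPKM, and the mean of the myeloid log2 levels differed by 1.27. No marker was at 0 in all libraries. In such bulk samples, fewer cells of a type and less RNA per cell cannot be told apart. ID8 cells come from the C57BL/6 strain too, so class I reads of tumour cells and T cells cannot be told apart either. The same holds for reads of B cells and myeloid cells. The part of these marker shifts in the values below was not tested.

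The class I genes moved unevenly. Groups were compared with limma on log2(FPKM + 0.1) over the 15874 genes averaging at least 0.5 FPKM, with Benjamini-Hochberg adjustment over all of them. At an adjusted p-value under 0.05, 4 of the 10 genes were higher in the cisplatin libraries (Nlrc5, Psmb10, Psmb8 and Tap2), 1 was lower (Tapbp), and 5 did not pass (H2-K1, H2-D1, B2m, Tap1 and Psmb9). Among all tested genes 56.5% passed, 27.5% as higher and 29.0% as lower, so 5 of 10 is near the share of the whole transcriptome. By limma 0 of the 10 reached a 2-fold change together with that p-value, which 16.9% of all tested genes did (4.11% as higher and 12.8% as lower). The count was 0 with limma's voom on rebuilt reads as well. In the limma fit on the deposited FPKM, 5 genes passed at an unadjusted p under 0.05 without the fold criterion. The median log2 fold change was 0.06 for the 10 genes and 0.03 for all tested genes. All cisplatin libraries lay above all control libraries for 5 genes and below them for 2, and the groups overlapped for 3, where 64.2% of all tested genes had groups that did not overlap.

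**Figure D1:**
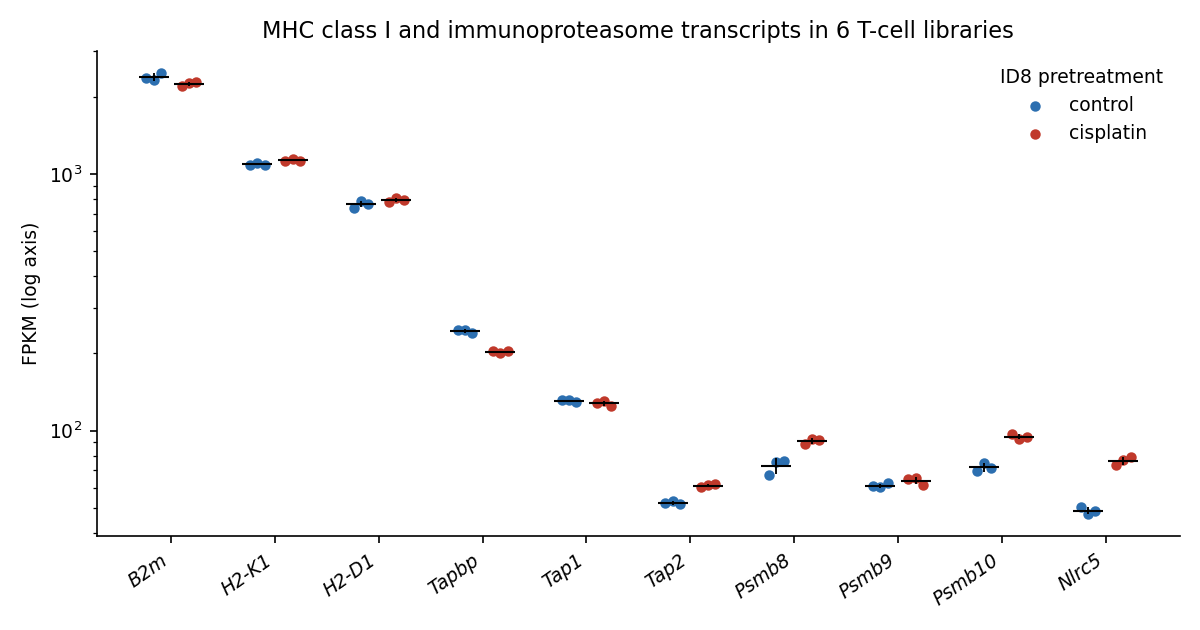
FPKM (log axis) of the 10 genes in each library, with control libraries in blue and cisplatin libraries in red (points), the group mean (horizontal line) and the SD (vertical bar, n = 3). B2m stood highest in every library, at 2205 FPKM or more, and the groups came apart most for Nlrc5, at 73.6 to 79.0 FPKM against 47.5 to 50.5 FPKM.

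Transcripts of the class I heavy and light chains were among the most abundant in these libraries. H2-K1 (ENSMUSG00000061232), which encodes the H2-K heavy chain, had 1123, 1139 and 1128 FPKM in the cisplatin libraries against 1085, 1108 and 1084 FPKM in the control libraries. The cisplatin libraries lay above the control libraries by a narrow margin. The log2 fold change was 0.05 ± 0.03 (SE), with an adjusted p of 0.23 from limma. H2-D1 (ENSMUSG00000073411), the H2-D heavy chain, had 775, 804 and 792 FPKM against 739, 781 and 763 FPKM. Its groups overlapped, and the log2 fold change was 0.05 ± 0.04 (SE; adjusted p = 0.24, limma). B2m (ENSMUSG00000060802), the light chain that every class I heavy chain needs, had 2205, 2260.1 and 2278 FPKM against 2375, 2314 and 2477 FPKM. Here all cisplatin libraries lay below the control libraries. The log2 fold change of -0.09 ± 0.04 (SE) did not pass either, with an adjusted p of 0.14 from limma.

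Relative to the light chain, the heavy chains were higher in the cisplatin libraries. The FPKM ratio of H2-K1 to B2m was 0.509, 0.504 and 0.495 in the cisplatin libraries against 0.457, 0.479 and 0.438 in the control libraries. The ratio of H2-D1 to B2m was 0.352, 0.356 and 0.348 against 0.311, 0.338 and 0.308. Neither ratio overlapped between the groups, and both differed by 0.14 on the log2 scale. Such a ratio within a library does not depend on the scaling between libraries. For each of the 6 ratios reported here the exact two-sided permutation test gave p = 0.1 (adjusted p = 0.1), the smallest that 3 libraries against 3 allow, so this test could not pass 0.05.

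H2-K1 lies on chromosome 17 (chr17:33996017-34000333, minus strand), H2-D1 on the same chromosome (chr17:35262730-35267499, plus strand) and B2m on chromosome 2 (chr2:122147686-122153083, plus strand), all in mm10 (GRCm38). Class I promoters carry a shared module in which an X2 box (the letters TGACG, a site for CREB and ATF proteins) stands before a Y box (a reversed CCAAT, the site of NF-Y), and NLRC5 acts through the proteins bound there. On the deposited FPKM these class I genes did not pass the test while Nlrc5 did, and their promoters are shown for that reason. H2-K1 and H2-D1 passed as higher after rescaling to the reads on genes, and together with B2m as lower after quantile normalization. The stretches below come from RefSeq promoter windows of GRCm38.p6, read 5′ to 3′ on the strand of the gene. They are H2-K1 at chr17:34000354-34000463 (minus strand), H2-D1 at chr17:35262918-35263050 (plus strand) and B2m at chr2:122147543-122147643 (plus strand), and the H2-D1 stretch lies inside the span the deposited table gives that gene. Capitals mark matches to the letters given in the paragraph below. In the H2-K1 stretch these are in order the kappa-B element, X2 box and Y box, and in H2-D1 the same with a further forward CCAAT. H2-K1 has a forward CCAAT as well, past the end of its stretch, at position 8 or -6 from its 2 RefSeq starts. In B2m the capitals mark an interferon-stimulated response element (ISRE), X2 box and Y box.
H2-K1: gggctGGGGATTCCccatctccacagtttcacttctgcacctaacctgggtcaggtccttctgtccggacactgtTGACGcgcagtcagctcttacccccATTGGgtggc
H2-D1: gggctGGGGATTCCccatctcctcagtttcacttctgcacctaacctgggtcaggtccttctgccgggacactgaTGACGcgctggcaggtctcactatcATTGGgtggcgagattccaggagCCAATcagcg
B2m: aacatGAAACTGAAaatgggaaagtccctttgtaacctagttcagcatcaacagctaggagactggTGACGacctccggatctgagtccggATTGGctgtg

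The start of TGACG lay 25 bases before the start of the reversed CCAAT in all 3 promoters. This fixed spacing, searched for after these promoters had been read, occurred on either strand in 31 of 32851 RefSeq windows of 300 bases, or 0.0944%. In the heavy chain promoters the kappa-B element began 70 bases before TGACG. A window was available for 8 of the 10 genes (not for Tap2 and Nlrc5), and 5 motifs were looked for on both strands: the ISRE as GAAANNGAA, the gamma-activated site (GAS) as TTCNNNGAA, the kappa-B element as GGGNNTTCC, CCAAT and TGACG. The kappa-B element was found in H2-K1 and H2-D1 and in 5.82% of all windows. The ISRE in the form GAAANNGAA was found in B2m and in 8.56% of windows, and the GAS in Psmb8 and in 8.3%. Other arrangements of the ISRE letters were not looked for. The lack of a match in H2-K1 and H2-D1 therefore does not show that these promoters lack an ISRE. CCAAT was present in B2m, H2-D1, H2-K1, Psmb9, Tap1 and Tapbp and in 37.4% of windows, and TGACG in B2m, H2-D1, H2-K1, Psmb9 and Tap1 and in 20.8%. Matches of different motifs did not overlap in these windows, and a match describes letters only.

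The transport and loading genes moved in different directions. Tap1 (ENSMUSG00000037321, chr17:34187553-34197225, plus strand) and Tap2 (ENSMUSG00000024339, chr17:34203527-34216321, plus strand) encode the subunits that pair to form the TAP transporter. Tap1 had 129, 131 and 125 FPKM in the cisplatin libraries against 131, 131 and 129 FPKM in the control libraries. These overlapped, and the log2 fold change was -0.03 ± 0.03 (SE; adjusted p = 0.42, limma). Tap2 had 60.1, 61.2 and 62.1 FPKM against 52.3, 53.4 and 51.7 FPKM. All cisplatin libraries lay above the control libraries. Tap2 was higher by 0.22 ± 0.03 (SE) on the log2 scale (adjusted p = 6.9e-04, limma), and lower, with a log2 fold change of -0.38, when libraries were centred on the T-cell markers.

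The ratio of Tap1 to Tap2 was 2.14, 2.13 and 2.01 in the cisplatin libraries against 2.51, 2.46 and 2.503 in the control libraries. Its groups did not overlap, and it differed by -0.25 on the log2 scale (exact permutation test, p = 0.1). These partners thus had more unequal FPKM in the control libraries. Tapbp (ENSMUSG00000024308, chr17:33915899-33929288, plus strand) encodes tapasin. Its level was 204, 200.6 and 204 FPKM against 246, 248 and 239.8 FPKM, with all cisplatin libraries below the control libraries. Tapbp fell, with a log2 fold change of -0.27 ± 0.03 (SE; adjusted p = 2.0e-04, limma), and it was lower under each of the 6 scalings and fits compared.

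The immunoproteasome subunits differed among themselves. Psmb8, Psmb9 and Psmb10 encode the β5i, β1i and β2i subunits, which take the places of the constitutive subunits β5, β1 and β2, encoded by Psmb5, Psmb6 and Psmb7. Psmb8 (ENSMUSG00000024338, chr17:34197721-34201454, plus strand) had 88.4, 93.2 and 92.2 FPKM in the cisplatin libraries against 67.3, 75.4 and 76.5 FPKM in the control libraries. The groups were separate. It rose by 0.32 ± 0.05 (SE) on the log2 scale (adjusted p = 0.0024, limma), with -0.28 after centring on the T-cell markers. Psmb10 (ENSMUSG00000031897, chr8:105935735-105938444, minus strand) had 97.3, 93.1 and 94.3 FPKM against 69.7, 75.0 and 71.3 FPKM. These groups were separate too. It rose by 0.40 ± 0.04 (SE; adjusted p = 1.3e-04, limma), with -0.20 after the same centring. Psmb9 (ENSMUSG00000096727, chr17:34181988-34187764, minus strand) had 64.7, 65.5 and 61.7 FPKM against 60.7, 60.3 and 62.3 FPKM. Its groups overlapped, and the log2 fold change was 0.06 ± 0.03 (SE; adjusted p = 0.15, limma).

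The constitutive subunits gave a second scale. Psmb5 had 40.8 ± 4.204 FPKM in the cisplatin libraries against 37.6 ± 1.32 FPKM in the control libraries (SD, n = 3), and the groups overlapped. Psmb6 was at 30.0 ± 1.83 FPKM against 33.1 ± 0.688 FPKM, a log2 fold change of -0.15 (adjusted p = 0.041, limma) that did not pass after rescaling to reads or quantile normalization (adjusted p = 0.36 for each) or without any one library other than cisplatin replicate 1 (adjusted p from 0.063 to 0.12). Psmb7 was at 10.5 ± 0.451 FPKM against 13.1 ± 0.194 FPKM, a log2 fold change of -0.31 (adjusted p = 0.0011, limma). Psmb11, the catalytic subunit of thymic epithelium, had at most 2 reads in a library and was not tested. In each pair the inducible gene had the higher FPKM in all 6 libraries, a comparison that depends on the gene lengths used.

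The transcript ratio of inducible to constitutive subunit was higher in the cisplatin libraries in all 3 pairs. Psmb10 to Psmb7 was 9.65, 8.47 and 8.96 in the cisplatin libraries against 5.40, 5.65 and 5.44 in the control libraries, a log2 difference of 0.71. Psmb9 to Psmb6 was 2.02, 2.25 and 2.14 against 1.82, 1.86 and 1.85, a log2 difference of 0.21. Psmb8 to Psmb5 was 2.07, 2.14 and 2.56 against 1.84, 2.03 and 1.96, also a log2 difference of 0.21. The groups did not overlap in any of these ratios (exact permutation test, p = 0.1 for each). The last of them rested in part on 1 library, since it was 0.12 without cisplatin replicate 3, where Psmb5 was lowest at 35.9 FPKM.

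**Figure D2:**
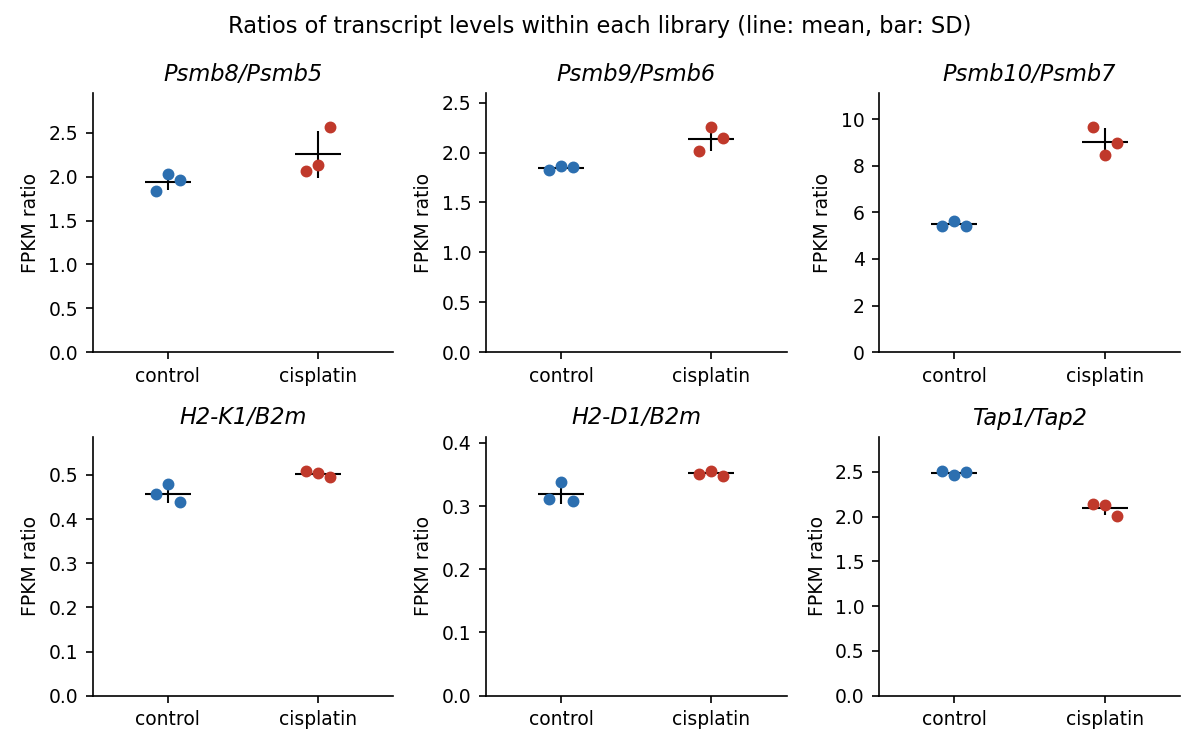
FPKM ratios within each library for the 3 pairs of inducible and constitutive catalytic subunits, the heavy chains over B2m and Tap1 over Tap2, with control libraries in blue and cisplatin libraries in red (points), means (lines) and SD (bars, n = 3). The groups do not overlap in any panel, and the widest gap is that of Psmb10/Psmb7, at 8.47 to 9.65 against 5.40 to 5.65.

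Nlrc5 (ENSMUSG00000074151, chr8:94434356-94527272, plus strand) differed most among the 10 genes. It had 73.6, 76.8 and 79.0 FPKM in the cisplatin libraries against 50.5, 47.5 and 48.5 FPKM in the control libraries. The groups were far apart relative to their spread. The mean was 1.57 times as high, with a log2 fold change of 0.65 ± 0.04 (SE; adjusted p = 1.6e-05, limma). It was also the member whose difference came nearest to that of the T-cell markers. Relative to the mean of those markers in the same library Nlrc5 differed by 0.05 (adjusted p = 0.34, limma), while the other 9 genes differed by -0.20 (Psmb10) to -0.87 (Tapbp) and all passed as lower.

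Levels of the 10 genes, which FPKM puts on a scale per length, followed nearly the same order in both groups. The order rests on the lengths used, since Psmb9 (3659 bases) had more reads than Psmb10 (1705 bases) in every library. In the cisplatin libraries the order was B2m (2248 ± 38.1 FPKM; SD, n = 3), H2-K1 (1130.1 ± 8.37), H2-D1 (791 ± 14.8), Tapbp (203 ± 2.05), Tap1 (128 ± 2.84), Psmb10 (94.9 ± 2.19), Psmb8 (91.3 ± 2.54), Nlrc5 (76.5 ± 2.73), Psmb9 (63.9 ± 2.01) and Tap2 (61.1 ± 1.03). Psmb10 and Psmb8 overlapped there, as did Psmb9 and Tap2. In the control libraries Nlrc5 was lowest (48.8 ± 1.51 FPKM), below Tap2 (52.5 ± 0.884) and Psmb9 (61.1 ± 1.06), and Psmb8 and Psmb10 again overlapped. Among all 54532 genes of the table B2m ranked 9 by mean FPKM in the cisplatin libraries against 4 in the control libraries, and H2-K1 ranked 16 and 13. Nlrc5 went from rank 973 in the control libraries to 505 in the cisplatin libraries, and Tapbp from 135 to 166. Together the 10 genes held 1.61 ± 0.0152% of the summed FPKM in the cisplatin libraries against 1.65 ± 0.0183% in the control libraries (SD, n = 3). Counted in reads, which weight long genes more, they held 1.02 ± 0.00132% against 0.935 ± 0.00685% of the reads on genes.

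Of the 10 genes 7 lie on chromosome 17 within 1.35 Mb, and Psmb9, Tap1, Psmb8 and Tap2 are packed into 34.3 kb (chr17:34181988-34216321). On the deposited FPKM, neighbours in this cluster differed in whether they passed. Psmb8 and Tap2 rose, Psmb9 and Tap1 did not pass the test, and only 495 bases separate the end of Tap1 from the start of Psmb8. After rescaling to the reads on genes Psmb9 passed as higher (0.15), and Psmb8 was not tested against Tap1 or Psmb9. Psmb9 and Tap1 start next to each other on opposite strands and share a promoter region. Its stretch between the CCAAT and the TGACG motif (in capitals; chr17:34187329-34187479, plus strand, GRCm38.p6) is printed below. It is shown because it serves both of the genes that did not pass on the deposited FPKM. It lies inside the deposited span of Psmb9.
Tap1: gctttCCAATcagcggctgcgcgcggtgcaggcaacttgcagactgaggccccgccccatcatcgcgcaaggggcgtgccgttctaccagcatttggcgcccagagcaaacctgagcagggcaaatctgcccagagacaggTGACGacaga

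**Figure D3:**
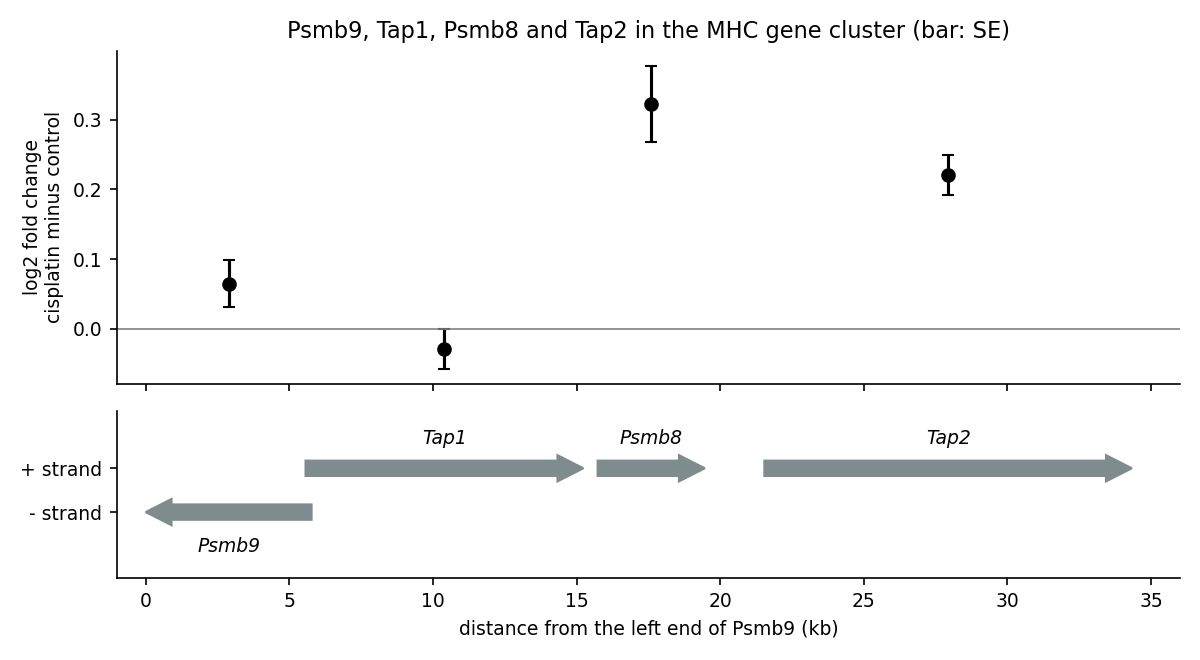
Log2 fold change of the 4 clustered genes (points; bars, SE) above their positions and strands, in kb from the left end of Psmb9. Psmb8 (0.32) and Tap2 (0.22) lie above 0 and Tap1 (-0.03, SE 0.03) and Psmb9 (0.06, SE 0.03) lie near 0. Rescaling to the reads on genes puts Psmb9 at 0.15, where it passed, and centring on the T-cell markers puts all 4 below 0.

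Some of these genes share exon bases or near-identical sequence with others, and the sources used here do not say whether strand was used in counting. Tapbp shares 29.0% of its exon bases (GENCODE M21) with other genes, mostly 904 bases with Gm19412 on the opposite strand, which is listed at 0 FPKM, and 149 bases with Zbtb22 on the same strand, which had a mean of 12.3 FPKM in both groups and which strand could not separate. Tap2 shares 18.5% and Psmb8 14.7%, with Gm15821 and Gm20496 on the opposite strand, whose mean levels were 1.40 to 4.23 FPKM. Psmb9 and Tap1 share 212 bases at their starts. Of all stretches of 100 bases in the transcripts, 3.59% in H2-D1 and 0.957% in H2-K1 occur in another gene, mainly of the H2-Q group, so reads there are uncertain between class I paralogs.

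The direction of the smaller differences depended on how libraries were scaled. On the FPKM as deposited the median of all tested genes was 0.03. After rescaling to the reads on genes it was 0.11, and 7 of the 10 genes were then higher, with H2-K1 at 0.13, H2-D1 at 0.14 and Psmb9 at 0.15 added. Quantile normalization put that median at 0.16 and made 4 genes lower, with H2-K1 at -0.15, H2-D1 at -0.13 and B2m at -0.57 besides Tapbp. Centring each library on the 18 T-cell markers, which assumes that these did not change, put the median of all genes at -0.57 and that of the 10 genes at -0.54, with 0 higher and 9 lower. The spread among the 10 genes, from Tapbp at the low end to Nlrc5 at the high end, was the same on the deposited FPKM and after centring, because that step moves all genes by the same amount.

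**Figure D4:**
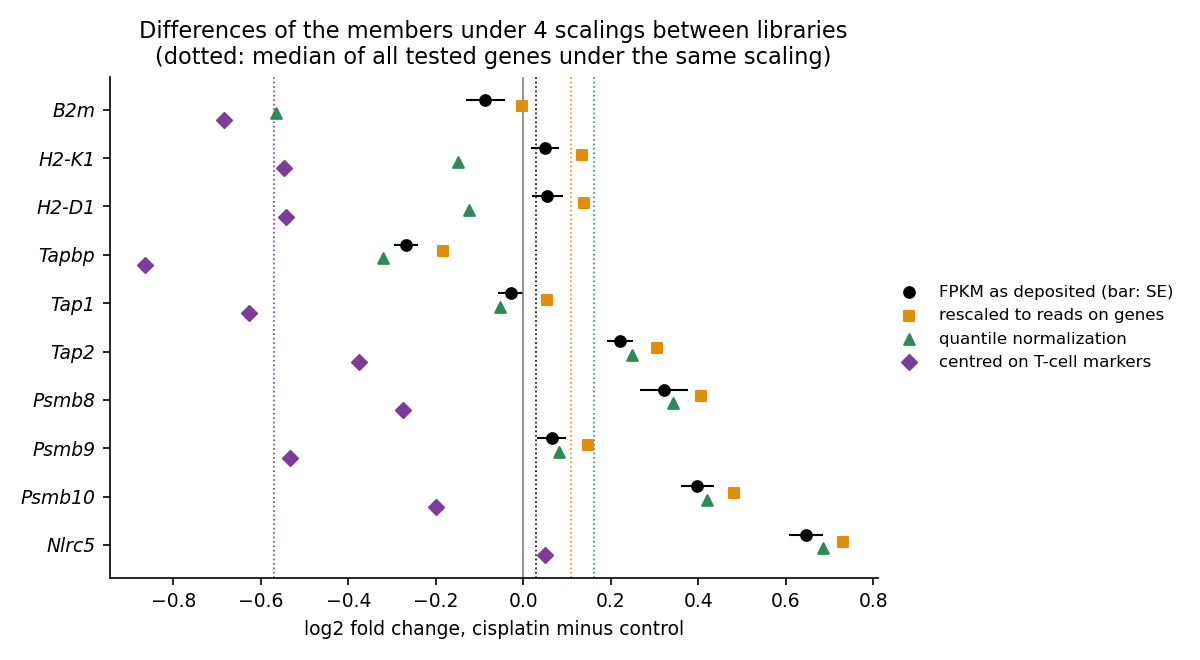
Log2 fold change (cisplatin minus control) of the 10 genes on the deposited FPKM (black, bars are SE), rescaled to reads on genes (orange), after quantile normalization (green) and centred on T-cell markers (purple), with the median of all tested genes under each scaling as a dotted line. Nlrc5 is highest under all 4 scalings (0.65 as deposited, 0.05 centred), and of the others only B2m and Tapbp lie below 0 under all 4.

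The other genes of the pathway, from 8 lists, were read for comparison. They held 72 genes, of which 67 were tested, and 34 were higher, 19 lower and 14 did not pass at an adjusted p under 0.05 from limma (background 27.5% higher and 29.0% lower). After centring on the T-cell markers the same 67 gave 3 higher and 56 lower, so each rise below is relative to the deposited scale. This centring takes out the shift of the T-cell markers only (0.60), and the myeloid markers differed by 1.27. A value above 0 after centring therefore does not set aside a shift in other cell types.

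Of 15 tested heavy chains of other class I and class I-like molecules, 8 were higher and 5 lower, with a median log2 fold change of 0.16 (-0.44 after centring). Cd1d1, which presents lipids to natural killer T cells, had 16.9, 17.2 and 16.2 FPKM in the cisplatin libraries against 7.58, 9.30 and 8.34 FPKM in the control libraries. These groups were wide apart, with a log2 fold change of 0.99 (adjusted p = 5.4e-05, limma; above 0 after centring too). The B-cell markers differed by 0.60 and the myeloid markers by 1.27, and their part in this rise was not tested. H2-T10, a nonclassical chain annotated as a polymorphic pseudogene, rose from 11.5 ± 0.451 to 17.7 ± 0.850 FPKM (log2 fold change 0.61, and 0.01 after centring). H2-K2, annotated as an unprocessed pseudogene, rose from 52.7 ± 1.09 to 68.2 ± 1.76 FPKM (0.37, and -0.23 after centring). Both are close copies of other class I genes, so their reads are uncertain. Fcgrt, the neonatal Fc receptor, which also pairs with β2-microglobulin, fell from 5.03 ± 1.07 to 2.44 ± 0.401 FPKM (log2 fold change -1.0036, adjusted p = 0.0029, limma). H2-M2, H2-Q1 and H2-T3 were below the filter.

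The ER genes that help load and fold heavy chains went opposite ways. Of 9 tested, 3 were higher and 5 lower, with a median of -0.17. Tapbpl, which encodes TAPBPR, a relative of tapasin that edits peptides, had 64.1, 64.8 and 62.9 FPKM in the cisplatin libraries against 36.5, 38.7 and 38.6 FPKM in the control libraries. It rose by 0.75 on the log2 scale (adjusted p = 4.3e-06, limma; also above 0 after centring), the reverse of the fall of Tapbp. Erap1, the ER aminopeptidase that trims peptides, rose from 16.2 ± 0.685 to 24.1 ± 0.787 FPKM (0.57, and -0.03 after centring). Hspa5 (the chaperone BiP) went from 136 ± 2.01 to 111 ± 1.18 FPKM (-0.29) and Ganab (glucosidase II) from 87.2 ± 2.53 to 75.0 ± 2.90 FPKM (-0.22). The lectin chaperone Calr (calreticulin), named after its values were seen, was higher at 195.5 ± 1.79 against 178.5 ± 5.30 FPKM (0.13, adjusted p = 0.011, limma), but not after centring.

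Peptide supply was divided in the same manner. Of 9 proteasome activators and assembly factors 6 were higher and 1 lower, with a median of 0.25 (-0.35 after centring). Psme3 (PA28γ) rose from 35.3 ± 1.08 to 47.7 ± 2.30 FPKM (0.43), the assembly chaperone Psmg2 from 13.4 ± 2.46 to 17.9 ± 1.24 FPKM (0.43), Psme1 (PA28α) from 112 ± 6.84 to 137 ± 7.33 FPKM (0.28) and Psmg4 from 25.9 ± 2.05 to 30.8 ± 2.002 FPKM (0.25). All of these were below 0 after centring. Psmg2 did not pass without cisplatin replicate 1 or 3 or control replicate 3 (adjusted p from 0.067 to 0.087), nor Psmg4 without cisplatin replicate 2 or 3 or control replicate 3 (0.053 to 0.073). Of 6 cytosolic peptidases, which destroy or trim the proteasome's products, 0 were higher and 4 lower, with a median of -0.21. Npepps, the puromycin-sensitive aminopeptidase, had 14.3, 14.4 and 14.9 FPKM in the cisplatin libraries against 32.7, 34.5 and 33.2 FPKM in the control libraries. The log2 fold change of -1.20 (adjusted p = 7.9e-07, limma) was larger in size than any difference among the 10 genes. Lap3 went from 25.5 ± 1.77 to 16.01 ± 0.257 FPKM (-0.66), Nrd1 from 32.0 ± 1.61 to 26.2 ± 0.685 FPKM (-0.29) and Tpp2 from 13.1 ± 0.307 to 12.0 ± 0.285 FPKM (-0.12), the last of which did not pass without any one of the libraries (adjusted p from 0.051 to 0.11).

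Genes upstream of class I transcription were mostly higher on the deposited scale. Of 10 tested genes of interferon gamma signalling 7 were higher and 2 lower, with a median of 0.20 (-0.40 after centring). Ifngr1, the ligand-binding chain of the receptor, had 148, 144 and 141 FPKM in the cisplatin libraries against 79.1, 80.8 and 82.8 FPKM in the control libraries. It rose by 0.84 (adjusted p = 2.0e-06, limma; above 0 after centring), whereas Ifngr2, the signalling chain, fell from 17.04 ± 0.520 to 12.4 ± 0.457 FPKM (-0.46). Irf1, the transcription factor that binds the ISRE of class I genes, had 110.1, 107 and 103 FPKM against 80.0, 80.7 and 78.9 FPKM. Its groups were separate, with a log2 fold change of 0.42 (adjusted p = 6.5e-05, limma) and of -0.18 after centring. Irf8 rose from 27.1 ± 0.110 to 34.7 ± 1.06 FPKM (0.36, and -0.24 after centring). The transcript of the cytokine, Ifng, was scarce, at 0.429, 1.002 and 0.810 FPKM against 0.206, 0.283 and 0.252 FPKM with at most 43 reads, and stayed below the filter.

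Of the 8 genes of the class I and II enhanceosome, the proteins that bind the X and Y boxes together with the class II coactivator CIITA, 3 were higher and 0 lower, with a median of 0.14 (-0.46 after centring). Ciita had 11.1, 11.6 and 10.9 FPKM in the cisplatin libraries against 7.08, 7.01 and 7.36 FPKM in the control libraries, a log2 fold change of 0.64 (adjusted p = 3.8e-05, limma; 0.04 after centring). This is close to the 0.65 of its relative Nlrc5. Nfyc rose from 8.36 ± 0.723 to 10.8 ± 0.779 FPKM (0.37) and Creb1 from 9.62 ± 0.0778 to 10.7 ± 0.357 FPKM (0.15), and both were below 0 after centring. Creb1 did not pass without cisplatin replicate 3 or control replicate 2 or 3 (adjusted p from 0.053 to 0.063). All 7 receptors that bind class I or class I-like molecules were higher, with a median of 0.46 (-0.14 after centring). Cd8b1 and Cd8a, the chains of the CD8 coreceptor, went from 121 ± 5.72 to 159 ± 3.74 FPKM (0.39) and from 81.2 ± 2.98 to 109.8 ± 0.876 FPKM (0.43). Klrd1 (CD94) went from 67.3 ± 1.73 to 92.6 ± 1.23 FPKM (0.46). Klrk1 (NKG2D) went from 3.83 ± 0.588 to 6.92 ± 0.254 FPKM (0.85), and of these 4 it alone stayed above 0 after centring (0.25, adjusted p = 0.061, limma). The rises of the receptors lay beside the 0.60 of the T-cell markers, and their relation was not tested.

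**Figure D5:**
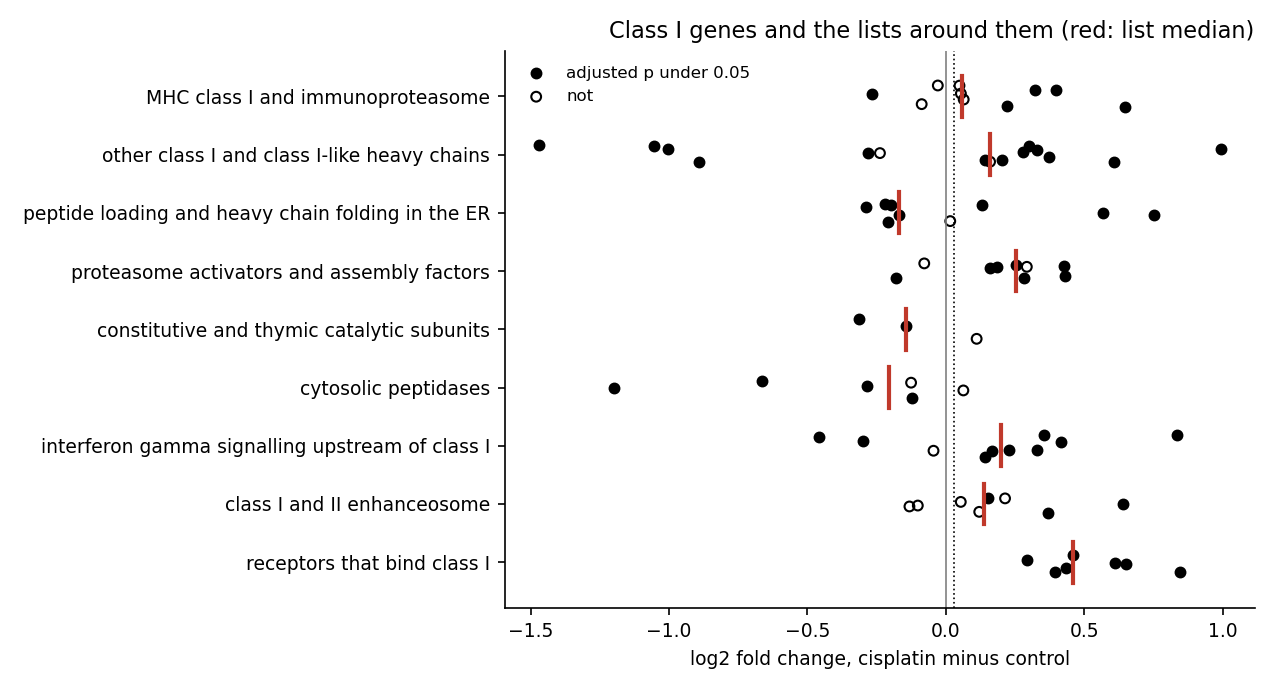
Log2 fold change (cisplatin minus control, deposited FPKM) of each tested gene of the 10 MHC class I and immunoproteasome genes and of the 8 lists around them. Filled points passed at an adjusted p under 0.05 and open points did not, red lines are list medians and the dotted line is the median of all tested genes (0.03), with the receptors highest (0.46) and the cytosolic peptidases lowest (-0.21), and every list median falls below 0 after centring on the T-cell markers.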

How the data were processed

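Poly-A RNA of 6 T-cell libraries was sequenced, 3 per group. The authors deposited FPKM per gene. The submitters' processing notes name fastp, HISAT2 2.0.5, featureCounts 1.5.0-p3 and mm10, whereas the paper's methods name LifeScope for alignment and counting. Strand and multi-mapping settings are not given in the sources used here. The table held 0 further sample columns.

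Samples were grouped by their labels. The 10 genes, the lists and the tests were chosen with earlier results of these data known. Named list genes are the up to 4 with the largest change per list among those at an adjusted p under 0.05 and averaging 5 FPKM or more in their higher group. Nrd1 is listed under an older symbol.

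The test was run on log2(FPKM + 0.1) in limma 3.58.1 (R 4.3.3; lmFit, eBayes with trend, Benjamini-Hochberg), over 15874 genes averaging 0.5 FPKM or more. Fold changes on this scale understate those of low genes. Reads were rebuilt from FPKM times gene length, 100% of values lying within 0.1 of a whole read. The FPKM denominator exceeded the reads on genes 1.04 times (cisplatin) and came to 0.980 of them (control). Replicates differed by more than sampling noise (chi-square per degree of freedom 5.35 to 6.44). Ratios were tested by exact permutation. The fit was tested on simulated data. Promoter windows run from 250 bases before to 50 after each RefSeq start (GRCm38.p6), and exons came from GENCODE M21. Alternatives were other pseudocounts (1, 0.01), filters and scalings, limma's voom on rebuilt reads (at least 10 in 3 libraries), a replicate block and leaving out each library. Other software was pandas 2.3.3, numpy 2.4.6, scipy 1.17.1 and matplotlib 3.10.9 under python 3.11.15.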

Additional observations from a re-analysis of the deposited data

How the results depend on the processing

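Leaving out each library in turn changed no call of the 10 genes: 4 stayed higher and 1 lower, with Nlrc5 at 0.62 to 0.67 and Tapbp at -0.28 to -0.26. Pseudocounts, filters and median-of-ratios scaling also left these counts at 4 and 1. Rescaling to reads and voom each gave 7 higher (H2-K1 0.13, H2-D1 0.14 and Psmb9 0.15 passing; Tap1 turned to 0.055 under both, not passing), and quantile normalization gave 4 lower (H2-K1 -0.15, H2-D1 -0.13, B2m -0.57). Centring on the T-cell markers gave 0 higher and 9 lower: B2m -0.68, Tap1 -0.63, H2-K1 -0.55, H2-D1 -0.54, Psmb9 -0.53, Tap2 -0.38, Psmb8 -0.28, Psmb10 -0.20, with Nlrc5 no longer passing at 0.049. It gave 3 higher and 56 lower among the pathway lists (34 and 19 as reported), and turned Psmb5 (-0.49), Creb1 (-0.44), Psmg4 (-0.35), Psme1 (-0.32), Irf8 (-0.24), H2-K2 (-0.23), Nfyc (-0.23), Cd8b1 (-0.20), Irf1 (-0.18), Psme3 (-0.17), Psmg2 (-0.17), Cd8a (-0.16), Klrd1 (-0.14) and Erap1 (-0.030).

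For all genes at a 2-fold change (653 higher, 2034 lower), centring gave 137 and 3871, a minimum of 5 FPKM 242 and 903, a pseudocount of 1 gave 311 higher and voom 1127 higher. A stricter filter tests fewer genes. The cause of the other shifts was not tested.

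Replicate numbers are shared by the groups, but nothing states that they mark a shared mouse or day, and same-numbered libraries did not deviate together (r = 0.0229, -0.0630 and -0.0207). With the replicate number as a block, 4 genes stayed higher and 1 lower, and the pathway lists gave 32 and 17, with Creb1 (adjusted p = 0.052) and Tpp2 (0.079) among those that no longer passed. The 6 ratios kept their direction under every alternative run for them, and with 3 libraries a side none could pass.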
